A study of Homo sapiens with 8 samples.

Results

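The subunits, regulators and assembly factors of the proteasome were followed in EA.hy926 cells in which parts of a super-enhancer had been deleted. All 46 protein-coding genes of the deposited table whose symbols run from PSMA to PSMG with a number were taken, except PSMB8 and PSMB9, out of 27945 genes in all, of which 19475 code for proteins. EA.hy926 is an established line that arose from the fusion of umbilical vein endothelium with A549, a lung carcinoma line. The ΔE2 group holds 3 lines from which the enhancer E2 was removed with CRISPR/Cas9 ribonucleoproteins, and the ΔSE12313-b group 3 lines from which SE12313-b was removed in the same way. Both elements belong to the super-enhancer SE12313 on chromosome 16, and SE12313-b had no activity in a reporter assay. Each deletion library comes from a line grown from 1 clone, whereas the control group is 2 libraries of EA.hy926 cells. For a proliferation assay the study used control cells that had received guide RNAs and were cultured beside the clones, and whether the control RNA came from these cells is not stated. Differences between clones and controls are therefore differences of derivation as well as of the deletion, and these cannot be told apart. Total RNA without ribosomal RNA was sequenced, and the values are FPKM (fragments per kilobase of transcript, scaled to the reads of a library), which can be compared between genes because they are set per length.

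The proteasome degrades proteins that carry ubiquitin chains. Its 20S core is a barrel of alpha rings, which hold the gate, and beta rings, which hold the proteolytic sites, and the 19S cap consists of a base, whose ATPases unfold the substrate, and a lid, which removes the ubiquitin. Because the complex needs its subunits in fixed proportions, their genes are regulated together, and in human cells the factor NFE2L1 (also called NRF1) raises them when the proteasome falls short. Endothelial cells, like most others, need the complex to divide and to control inflammatory signalling.

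The transcripts of the proteasome were higher in the deletion clones than in the controls. Summed over the 46 genes, the level was 1923 and 1938 FPKM in control cells, 3319, 3375 and 3535 FPKM without E2 and 3522, 3450 and 3582 FPKM without SE12313-b. All 6 clones lay far above both controls, and the groups of clones overlapped each other. Reads on genes were counted by the transcript of highest mean FPKM of each gene. As a share of these reads, which does not depend on reads outside them, the members took 0.452% and 0.454% in the controls and between 0.688% and 0.745% in the clones. In these bulk libraries, more cells that express a gene and more RNA per cell cannot be told apart.

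Of the 46 genes, 44 passed the filter on low values (2 or more libraries at 0.5 FPKM or above) and were tested with limma on log2(FPKM + 0.1), with Benjamini-Hochberg adjustment over all 13789 genes that passed. At an adjusted p under 0.05, 40 of the 44 rose in ΔE2, where 34.7% of all genes tested rose, and 41 rose in ΔSE12313-b, where 43.0% of all genes did. In each deletion 1 member fell, PSMB10, against 19.4% of all genes in ΔE2 and 16.4% in ΔSE12313-b. A rise of at least 1.5-fold was found for 33 members in ΔE2 (22.5% of all genes) and for 34 in ΔSE12313-b (29.9%), and one of at least 2-fold for 11 members in each (11.2% and 14.7% of all genes). A fall of at least 1.5-fold was found for PSMB10 in ΔSE12313-b (12.2% of all genes) and for 0 members in ΔE2 (14.1%), and one of 2-fold for 0 members in either (8.36% and 7.83%). Both comparisons use the same 2 controls. In ΔE2 41 members had all 3 clones above both controls, against 44.8% of all genes, and in ΔSE12313-b 42 members, against 51.5%.

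The size of the change was alike across most of the complex. The median log2 change of the 44 members was 0.79 in ΔE2 and 0.83 in ΔSE12313-b, where the medians over all genes tested were 0.14 and 0.27. Among the 31 constitutive subunits of the 20S core and the 19S cap the medians were 0.93 and 0.92, and the changes had an SD of 0.278 and 0.331, as against 1.09 and 1.11 over all genes. All 31 rose in ΔE2 and 30 rose in ΔSE12313-b, with PSMD7 the exception. In each deletion 28 of them rose at least 1.5-fold. The regulators and assembly factors changed less at their medians, with 0.54 and 0.53 for the 4 activators and 0.38 and 0.57 for the 4 assembly chaperones of the core.

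**Figure D1:**
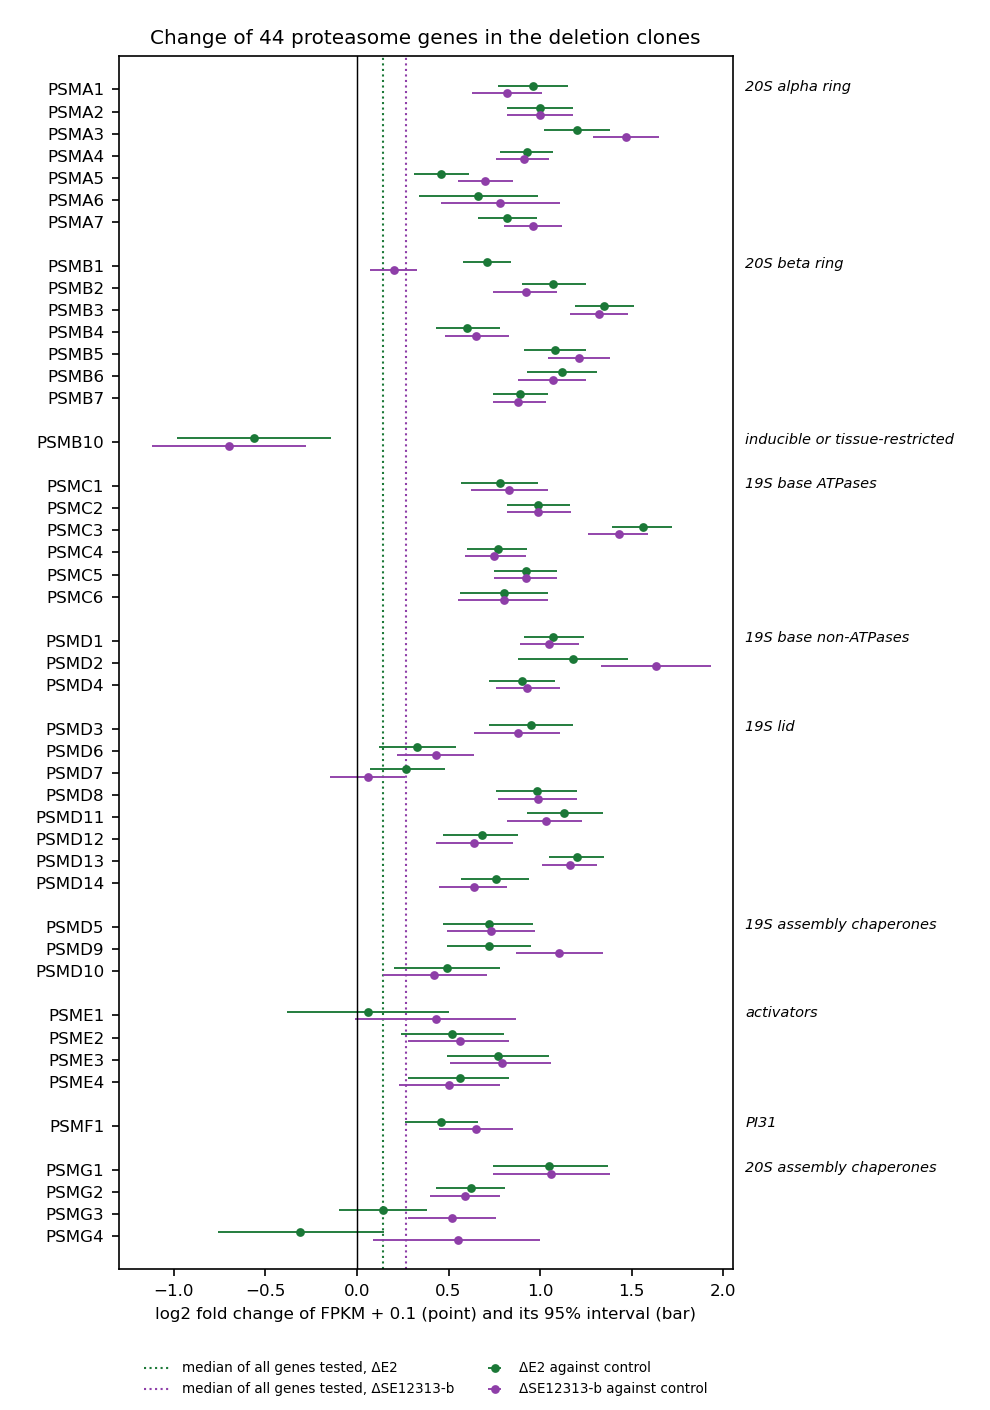
Log2 fold change of FPKM + 0.1 against control for the 44 members tested, grouped by role, with limma's 95% interval as a bar (ΔE2 green, ΔSE12313-b purple) and the median of all genes tested as dotted lines. Most members of the core and the cap lie between 0.5 and 1.5 in both deletions, while PSMB10 lies below 0 in both and PSMD7 and PSME1 lie near the dotted lines in ΔE2.

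Since the median of all genes was shifted by 0.14 and 0.27, each library was also centred on its median log2 ratio to the mean library, so that a change is read relative to the typical gene. Relative to that shift 38 members were still higher in ΔE2 (26.6% of all genes) and 34 in ΔSE12313-b (27.7%). PSMB10 was lower in both, and PSMD7 was lower in ΔSE12313-b, where 27.3% of all genes were. The median change of the members was then 0.63 and 0.54. The number that rose at least 1.5-fold was 26 in ΔE2 (16.6%) and 21 in ΔSE12313-b (17.4%). With quantile normalization, calls that centring had kept were lost for PSMA6 and PSMB4 in both deletions, for PSMD10 and PSME2 in ΔE2 and for PSMD12, PSMD14 and PSMG2 in ΔSE12313-b, and PSMB1 was lower in ΔSE12313-b (-0.32, adjusted p = 0.00271).

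By the depths recovered from the FPKM, the control libraries held 12696176 and 12067557 reads, of which 8150487 and 7801359 fell on genes. Here each gene is counted by its transcript of highest mean FPKM. Reads on its other exons are thus missed, and reads shared by overlapping genes can count more than once. The ΔE2 libraries held 19101154, 17124024 and 13616467 reads (13371431, 12220690 and 9979509 on genes). The ΔSE12313-b libraries held 16085526, 14814167 and 15890262 reads (12586444, 11145390 and 12461997 on genes). The share on genes was thus lowest in the controls and highest in ΔSE12313-b. FPKM are scaled to all reads of a library, and the part of this share in the shift of all genes was not tested. A tested member had between 30 and 11045 reads in a library. Endothelial markers were present, with ENG at 162 to 274 FPKM and CDH5 at 64.3 to 141 FPKM, but CLDN5 was listed at 0 in all 8 libraries and KDR did not exceed 0.292 FPKM. Of 12 endothelial markers 10 were tested, of which 5 rose and 3 fell in ΔE2, and 3 rose and 1 fell in ΔSE12313-b, with sums of 384 and 385 FPKM in the controls and 380 to 603 in the clones. Of 7 epithelial markers, KRT8, KRT18 and KRT7 rose in both deletions (summed level of the list 361 and 363 FPKM in the controls and 811 to 1210 in the clones) and CDH1 was at 0. EPCAM and CLDN4 were too low to be tested, with at most 12 and 10 reads in a library and 5 each in control 2. Their FPKM were lower in all clones (EPCAM 0.554 and 0.243 FPKM in the controls and at most 0.215 in the clones, CLDN4 0.431 and 0.227 and at most 0.185). Differences of so few reads are not read as a change. All 5 fibroblast markers and 4 of 5 leukocyte markers stayed under 1 FPKM in every library, LYZ reaching 2.67 FPKM in a ΔE2 clone. The clones also differed from the controls in proliferation genes, since 10 of 10 (among them MKI67, TOP2A and CCNB1) rose in both deletions. Their summed level was 88.3 and 91.1 FPKM in the controls and 593 to 739 FPKM in the clones. The study itself measured reduced proliferation in the clones of both deletions, with fewer cells in S phase than in control cells. Whether the rise of these transcripts goes with faster or slower division in the sequenced cultures was not tested. The part of these differences in the results on the proteasome was not tested.

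In the control cells the members differed widely in level although the core and the cap hold them in fixed numbers. Over the 44 members tested, mean control levels ran from 3.61 FPKM (PSMG4) to 135 FPKM (PSMA7), with a median of 34.8 FPKM. PSMA7, PSME1 (106 ± 3.22 FPKM, SD, n = 2), PSMD10 (97.7 ± 2.01), PSMB4 (90.5 ± 1.61) and PSMA6 (88.9 ± 3.84) were highest, and PSMB4 and PSMA6 did not differ beyond their spread. PSMF1 (10.6 ± 0.193), PSME4 (10.2 ± 0.421), PSMG3 (9.04 ± 0.25), PSMD9 (5.04 ± 0.522) and PSMG4 (3.61 ± 0.22) were lowest, and PSMF1 and PSME4 overlapped. The spread of log2 levels over the 31 core and cap subunits was 0.859 and 0.851 (SD) in control cells, 0.871 to 0.881 without E2 and 0.902 to 0.932 without SE12313-b. The transcripts were thus at least as unequal in each clone as in the controls. Some levels are less certain than others, because 17 members have named processed copies in the annotation, up to 13 for PSMC1, and antisense genes are listed for PSMA3, PSMD6 and PSMG3. How strands and shared reads were handled in the deposited values is not stated, so reads of such pairs cannot be told apart.

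**Figure D2:**
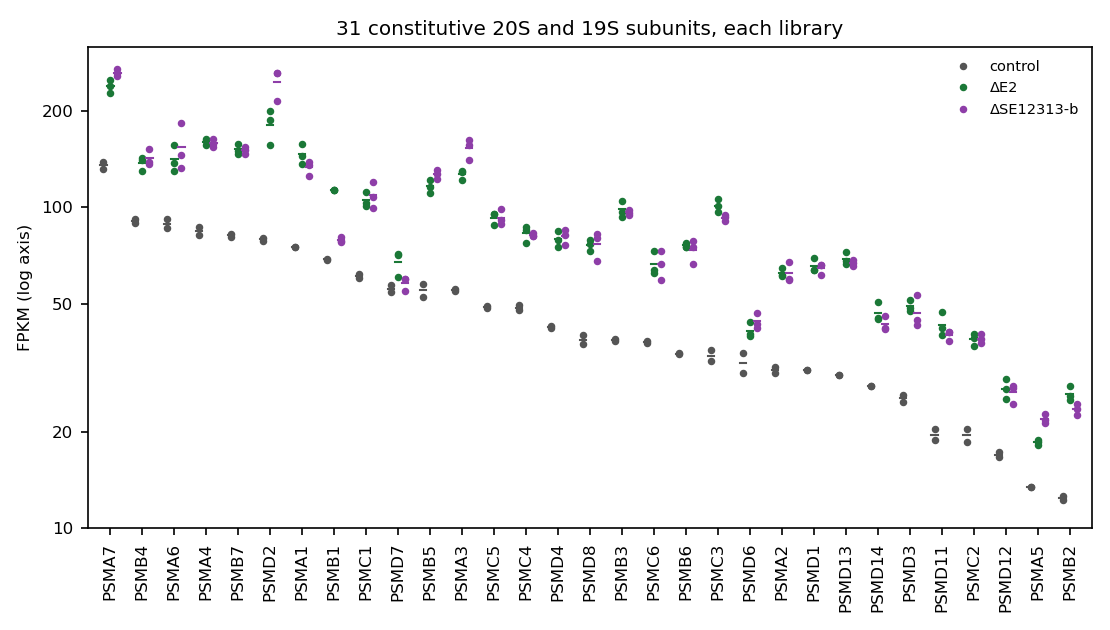
FPKM of the 31 constitutive subunits of the 20S core and the 19S cap in each of the 8 libraries, on a log axis and ordered by their control level (points are libraries, short lines group means). From PSMA7 to PSMB2 the clones lie above the controls, except at PSMD7, where the ΔSE12313-b clones overlap them, and the gap is small at PSMB1 in ΔSE12313-b.

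Because the members moved together, their promoters were searched for TGACNNNGC, the core of the antioxidant response element that NFE2L1 and NFE2L2 bind with small MAF proteins, on both strands. The windows are those of RefSeq on GRCh38.p14, from 250 bases before to 50 after a start site, and 40 of the 46 members had one. PSMA7, PSMB1, PSMB6, PSMB7, PSMD4 and PSMG3 were not in the table. The letters were found in 14 of the 40 members (35.0%), in 16.1% of all genes of the table and in 19.4% of the coding genes tested. Those found upstream of the start of a core or cap subunit are shown, read on the strand that holds the motif and with the motif in capitals. They are PSMA4 (126 bases before the start, chr15:78540650-78540678), PSMB3 (104 bases, chr17:38752627-38752655), PSMC5 (57 bases and on the strand opposite to the gene, chr17:63827654-63827682), PSMD12 (165 bases, chr17:67366724-67366752, a gene of the minus strand) and PSMD3 (37 bases, chr17:39980760-39980788).
PSMA4: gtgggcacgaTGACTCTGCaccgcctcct
PSMB3: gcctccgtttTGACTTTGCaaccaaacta
PSMC5: agggcggcgcTGACACAGCagatccggtc
PSMD12: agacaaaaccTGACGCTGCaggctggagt
PSMD3: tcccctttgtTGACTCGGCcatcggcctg
PSMA4, PSMB3, PSMC5, PSMD12 and PSMD3 all rose in both deletions, by 0.93, 1.35, 0.92, 0.68 and 0.95 in ΔE2 on the log2 scale. Of all 31 core and cap subunits 30 rose in both deletions, so their rise does not set these genes apart. PSME1, whose window also holds the letters, was not called in either deletion. PSMC3 and PSMD2, which rose most, have windows in which these letters were not found. CCAAT, which NF-Y binds, was found in 19 of the 40 (47.5%), in 39.7% of all genes and in 43.5% of the coding genes tested. A match describes the letters of a window and is not a bound site.

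The alpha ring of the core, whose subunits close the gate to the proteolytic chamber, rose throughout, with medians of 0.93 and 0.91. Its summed level was 480 and 486 FPKM in control cells, 864 to 920 FPKM without E2 and 930 to 980 FPKM without SE12313-b. PSMA3 changed most. PSMA3 was at 55.6 and 54.7 FPKM in control cells, at 122, 129 and 130 FPKM without E2 and at 141, 156 and 162 FPKM without SE12313-b. Its clones lay above the controls without overlap, and the log2 change was 1.20 in ΔE2 (95% interval 1.02 to 1.38, limma adjusted p = 1.32e-05) and 1.47 in ΔSE12313-b (1.29 to 1.65, adjusted p = 3.57e-06). PSMA2 was at 31.8 and 30.5 FPKM in control cells, at 60.9, 61.7 and 64.6 FPKM without E2 and at 67.6, 60.0 and 59.5 FPKM without SE12313-b. That is a doubling of PSMA2 in both deletions (log2 change 1.00). PSMA7, the most abundant member in the controls, was at 132 and 139 FPKM in control cells, at 239, 228 and 249 FPKM without E2 and at 271, 257 and 262 FPKM without SE12313-b. Its change was 0.82 (ΔE2) and 0.96 (ΔSE12313-b).

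PSMA1 was at 75 and 75.4 FPKM in control cells, at 137, 145 and 158 FPKM without E2 and at 139, 136 and 125 FPKM without SE12313-b. The 3 clones of each deletion again lay above both controls, with a change of 0.96 (ΔE2) and 0.82 (ΔSE12313-b). PSMA4 was at 86.7 and 82.1 FPKM in control cells, at 157, 161 and 163 FPKM without E2 and at 158, 154 and 163 FPKM without SE12313-b. Its 6 clones fell within 154 to 163 FPKM, and the change was 0.93 (ΔE2) and 0.91 (ΔSE12313-b). PSMA6 was at 86.2 and 91.7 FPKM in control cells, at 130, 156 and 138 FPKM without E2 and at 133, 146 and 184 FPKM without SE12313-b. This subunit varied most among the clones of the ring, and its interval was wide (0.66, 0.34 to 0.99 in ΔE2). With quantile normalization PSMA6 was not called in either deletion (0.25, adjusted p = 0.127, and 0.22, adjusted p = 0.176). PSMA5 was at 13.4 and 13.4 FPKM in control cells, at 18.5, 18.8 and 18.2 FPKM without E2 and at 21.7, 21.3 and 22.7 FPKM without SE12313-b. PSMA5 changed least in the ring, 0.46 in ΔE2 (adjusted p = 0.000726) and 0.70 in ΔSE12313-b (adjusted p = 6.64e-05), and is the one that did not reach 1.5-fold in ΔE2.

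PSMA8, the alpha subunit of the testis, was listed at 0 in all 8 libraries, and PSMB11, the beta subunit of the thymus, at 0 in 7 of them and at 0.039 FPKM (1 read) in a ΔE2 clone. Neither was tested. A count of 0 allows up to 3 reads in a library, so low expression is not detectable at this depth.

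Among the beta subunits, the 3 that carry the proteolytic sites roughly doubled. PSMB5, which holds the chymotrypsin-like site and is the main target of bortezomib, was at 57.5 and 52.7 FPKM in control cells, at 111, 116 and 122 FPKM without E2 and at 123, 131 and 127 FPKM without SE12313-b. The change of PSMB5 was 1.08 in ΔE2 (0.91 to 1.25) and 1.21 in ΔSE12313-b (1.04 to 1.38). PSMB6, with the caspase-like site, was at 35.1 and 34.9 FPKM in control cells, at 77.5, 75.3 and 75.5 FPKM without E2 and at 78.7, 66.5 and 75.3 FPKM without SE12313-b. PSMB6 changed by 1.12 (ΔE2) and 1.07 (ΔSE12313-b), and its groups of clones overlapped. PSMB7, with the trypsin-like site, was at 82.6 and 81 FPKM in control cells, at 150, 147 and 158 FPKM without E2 and at 154, 147 and 151 FPKM without SE12313-b. PSMB7 changed by 0.89 (ΔE2) and 0.88 (ΔSE12313-b), with all clones within 147 to 158 FPKM.

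Of the beta subunits without a proteolytic site, PSMB3 was at 38.8 and 38.3 FPKM in control cells, at 97.1, 93.6 and 105 FPKM without E2 and at 98.5, 94.7 and 96.2 FPKM without SE12313-b. PSMB3 rose most in this ring, by 1.35 (adjusted p = 3.68e-06, limma) and 1.32 (adjusted p = 3.57e-06). PSMB2 was at 12.6 and 12.2 FPKM in control cells, at 25.9, 25 and 27.7 FPKM without E2 and at 24.4, 22.6 and 23.5 FPKM without SE12313-b. It is the least abundant constitutive subunit in the controls, and rose by 1.07 (ΔE2) and 0.92 (ΔSE12313-b). PSMB4 was at 91.7 and 89.4 FPKM in control cells, at 130, 143 and 141 FPKM without E2 and at 152, 139 and 137 FPKM without SE12313-b. This abundant subunit, whose tail binds the opposite ring of the core, changed less, by 0.60 (ΔE2) and 0.65 (ΔSE12313-b), and passed 1.5-fold in each deletion. PSMB4 no longer passed 1.5-fold relative to the shift of all genes (0.45 and 0.37), and with quantile normalization it was not called (0.19, adjusted p = 0.094, and 0.09, adjusted p = 0.385).

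PSMB1 was the one core subunit called higher in ΔE2 than in ΔSE12313-b. PSMB1 was at 69 and 68.7 FPKM in control cells, at 113, 113 and 113 FPKM without E2 and at 78.3, 78.1 and 80.9 FPKM without SE12313-b. The ΔE2 clones were equal to 3 digits and lay above the ΔSE12313-b clones, which in turn lay just above the controls. Its change was 0.71 in ΔE2 (0.58 to 0.84, adjusted p = 3.98e-05) and 0.20 in ΔSE12313-b (0.07 to 0.33, adjusted p = 0.0172). Relative to the shift of all genes the latter became -0.09 (adjusted p = 0.21), so the rise in ΔSE12313-b did not hold there. It was also lost without control 1 (0.20, adjusted p = 0.108) or control 2 (0.20, adjusted p = 0.115).

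PSMB10 was the only member to fall. It is the beta subunit that takes the place of PSMB7 in the immunoproteasome, the form of the core that interferon gamma induces and that trims peptides for antigen presentation. PSMB10 (chr16:67968407-67970780, minus strand, GRCh37) was at 19.2 and 17.4 FPKM in control cells, at 11.4, 13.5 and 12.4 FPKM without E2 and at 11.3, 8.81 and 14.2 FPKM without SE12313-b. All 6 clones lay below both controls, as 28.7% of all genes did in ΔE2 and 23.8% in ΔSE12313-b. The log2 change was -0.56 in ΔE2 (-0.98 to -0.14, adjusted p = 0.0321) and -0.70 in ΔSE12313-b (-1.12 to -0.28, adjusted p = 0.0111). As PSMB7 rose, the ratio of PSMB10 to PSMB7 went from 0.233 and 0.215 in control cells to 0.0754, 0.092 and 0.0785 without E2 and to 0.0732, 0.0598 and 0.0936 without SE12313-b.

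The fall of PSMB10 rests on few libraries. In ΔE2 the call was lost without control 1 (log2 change -0.48, adjusted p = 0.156), without control 2 (-0.63, adjusted p = 0.0811), without ΔE2 clone 1 (-0.49, adjusted p = 0.0877) and without ΔE2 clone 3 (-0.56, adjusted p = 0.0737). In ΔSE12313-b it was lost without control 1 (-0.63, adjusted p = 0.0722). PSMB10 lies on chromosome 16, which carries both deletions, and the 91 tested coding genes within 5 Mb of it had median changes of 0.15 and 0.06. The other inducible beta subunits were not called lower. PSMB8 was at 22.8 and 22.3 FPKM in control cells, at 24.3, 24.7 and 22.6 FPKM without E2 and at 29.2, 27.5 and 34.6 FPKM without SE12313-b. PSMB8 rose in ΔSE12313-b (0.42, adjusted p = 0.00837), which did not hold relative to the shift of all genes (0.14, adjusted p = 0.301), and was not called in ΔE2 (0.08, -0.16 to 0.32). PSMB9 was at 14.2 and 16.2 FPKM in control cells, at 13.5, 15.3 and 13.7 FPKM without E2 and at 14.3, 12.7 and 18.4 FPKM without SE12313-b. Its groups overlapped, and neither change was called (-0.10, -0.45 to 0.26, and -0.02, -0.37 to 0.34).

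**Figure D3:**
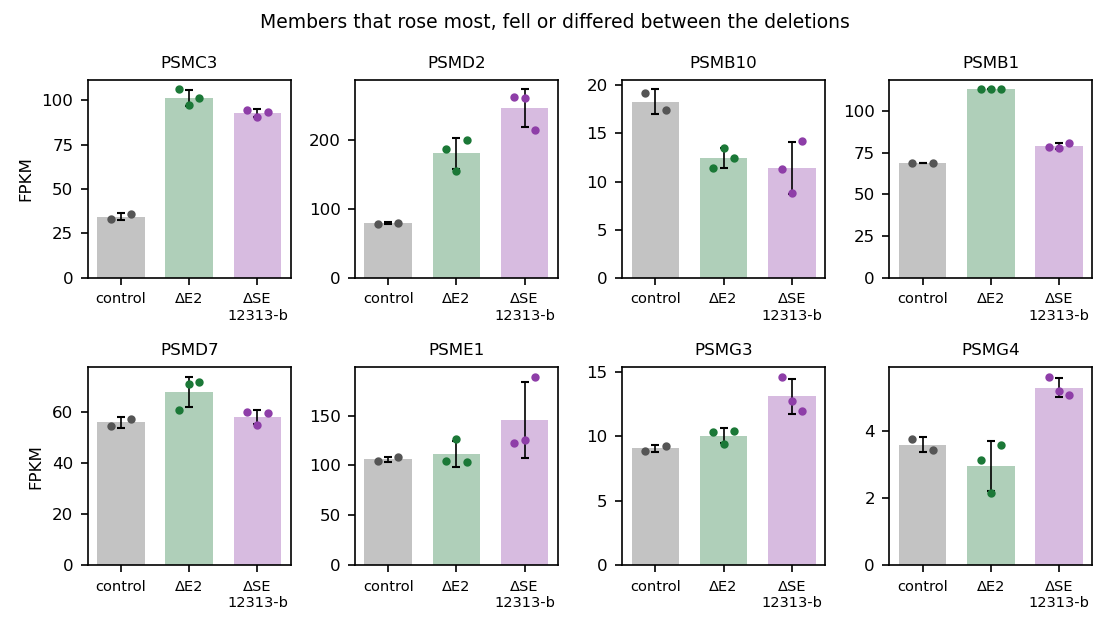
FPKM of 8 members in each library (points), with the group mean as a bar from 0 and the SD as an error bar (control n = 2, each deletion n = 3). PSMC3 and PSMD2 rose most and PSMB10 fell. PSMB1 was higher and PSMD2, PSMG3 and PSMG4 were lower in ΔE2 than in ΔSE12313-b. PSMD7 changed little in both deletions and PSME1 in ΔE2. In ΔSE12313-b all clones of PSME1 lay above the controls, clone 3 far above, and the change was not called.

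The 6 ATPases of the base form the ring that unfolds substrates and opens the gate of the core. All 6 rose in both deletions, with medians of 0.86 and 0.88, and their summed level was 248 and 254 FPKM in control cells, 475 to 509 FPKM without E2 and 464 to 507 FPKM without SE12313-b. PSMC3 (chr11:47440320-47448024, minus strand, GRCh37) rose most of all members in ΔE2. PSMC3 was at 33.1 and 35.8 FPKM in control cells, at 106, 97.1 and 101 FPKM without E2 and at 94.6, 90.4 and 93.3 FPKM without SE12313-b. The change was 1.56 in ΔE2 (1.39 to 1.72, adjusted p = 1.86e-06) and 1.43 in ΔSE12313-b (1.26 to 1.59, adjusted p = 2.61e-06), and the 40 coding genes around it had medians of 0.13 and 0.36. PSMC2 was at 18.6 and 20.4 FPKM in control cells, at 37, 39.2 and 40.3 FPKM without E2 and at 40.3, 38.8 and 37.8 FPKM without SE12313-b. This ATPase rose by 0.99 in both. PSMC5 was at 48.6 and 49.2 FPKM in control cells, at 95.1, 88.4 and 95.2 FPKM without E2 and at 88.5, 91.4 and 99.1 FPKM without SE12313-b. It rose by 0.92 in both as well.

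The other 3 ATPases rose a little less. PSMC1 was at 62.2 and 60.3 FPKM in control cells, at 103, 101 and 112 FPKM without E2 and at 99.3, 108 and 120 FPKM without SE12313-b. Its change was 0.78 (ΔE2) and 0.83 (ΔSE12313-b). PSMC4 was at 47.8 and 49.6 FPKM in control cells, at 77.2, 85.1 and 86.9 FPKM without E2 and at 81.7, 81.7 and 83.4 FPKM without SE12313-b. The ΔSE12313-b clones of PSMC4 were closer to each other than those of ΔE2, and the change was 0.77 (ΔE2) and 0.75 (ΔSE12313-b). PSMC6 was at 37.7 and 38.4 FPKM in control cells, at 62.3, 63.8 and 73.2 FPKM without E2 and at 59.5, 66.8 and 72.9 FPKM without SE12313-b. With 0.80 in both deletions, PSMC6 had the widest interval of the ring (0.56 to 1.04 in ΔE2).

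Of the base subunits that are no ATPases, PSMD2 rose most of all members in ΔSE12313-b. It is the scaffold on which shuttle factors bring ubiquitinated proteins to the cap and to which the deubiquitinase USP14 binds. PSMD2 (chr3:184018369-184026842, plus strand, GRCh37) was at 78.5 and 80.4 FPKM in control cells, at 188, 156 and 200 FPKM without E2 and at 263, 262 and 215 FPKM without SE12313-b. All clones lay well above the controls, with a change of 1.18 in ΔE2 (0.88 to 1.48, adjusted p = 0.000183) and 1.63 in ΔSE12313-b (1.33 to 1.93, adjusted p = 2.82e-05). PSMD1, the scaffold of similar build that anchors ADRM1, was at 31.2 and 31.1 FPKM in control cells, at 63.9, 63.8 and 69.5 FPKM without E2 and at 66.2, 65.9 and 61.5 FPKM without SE12313-b. PSMD1 rose by 1.07 (ΔE2) and 1.05 (ΔSE12313-b). PSMD4, a receptor for ubiquitin chains, was at 42.8 and 42.2 FPKM in control cells, at 75.1, 79.3 and 84.6 FPKM without E2 and at 85.3, 76.6 and 82.3 FPKM without SE12313-b. PSMD4 rose by 0.90 (ΔE2) and 0.93 (ΔSE12313-b).

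The lid was less even than the base. Its summed level was 244 and 250 FPKM in the controls and 386 to 446 in the clones, and its medians were 0.85 and 0.76. PSMD13 was at 30.0 and 30.0 FPKM in control cells, at 68.2, 66.6 and 72.6 FPKM without E2 and at 68.6, 65.7 and 67 FPKM without SE12313-b. It rose most in the lid, by 1.20 (adjusted p = 4.82e-06, limma) and 1.16 (adjusted p = 4.89e-06). PSMD11, which clamps the lid to the core, was at 18.8 and 20.3 FPKM in control cells, at 42, 39.9 and 47.3 FPKM without E2 and at 40.9, 40.9 and 38.3 FPKM without SE12313-b. PSMD11 rose by 1.13 (ΔE2) and 1.03 (ΔSE12313-b). PSMD8 was at 39.9 and 37.5 FPKM in control cells, at 76.8, 73.2 and 79.1 FPKM without E2 and at 82.6, 80.2 and 68.3 FPKM without SE12313-b. PSMD8, the last subunit to join the lid, rose by 0.98 (ΔE2) and 0.99 (ΔSE12313-b).

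PSMD3, a scaffold subunit of the lid, was at 26 and 24.8 FPKM in control cells, at 48.6, 47.5 and 51.4 FPKM without E2 and at 53.5, 44.6 and 42.9 FPKM without SE12313-b. PSMD3 rose by 0.95 (ΔE2) and 0.88 (ΔSE12313-b). PSMD12, also a scaffold subunit, was at 16.6 and 17.3 FPKM in control cells, at 27.1, 25.2 and 29.1 FPKM without E2 and at 27.3, 27.8 and 24.4 FPKM without SE12313-b. PSMD12 rose by 0.68 (ΔE2) and 0.64 (ΔSE12313-b). PSMD14, the metalloprotease that cuts ubiquitin from the substrate, was at 27.8 and 27.7 FPKM in control cells, at 45.2, 45 and 50.8 FPKM without E2 and at 41.9, 45.7 and 42.2 FPKM without SE12313-b. PSMD14 rose by 0.76 (ΔE2) and 0.64 (ΔSE12313-b) and is the one enzyme of the lid.

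PSMD7 and PSMD6 changed least among the constitutive subunits of the cap. PSMD7, the inactive partner of PSMD14 in the lid, was at 54.3 and 57.3 FPKM in control cells, at 60.8, 70.8 and 71.5 FPKM without E2 and at 59.7, 54.9 and 59.6 FPKM without SE12313-b. The ΔSE12313-b clones overlapped the controls, and the change was 0.27 in ΔE2 (0.07 to 0.48, adjusted p = 0.0329) and 0.06 in ΔSE12313-b (-0.15 to 0.26, adjusted p = 0.613). Relative to the shift of all genes PSMD7 was not called in ΔE2 (0.12, adjusted p = 0.252) and was lower in ΔSE12313-b (-0.23, adjusted p = 0.0389). The call in ΔE2 was also lost without either control library (adjusted p = 0.185 and 0.0924) and without ΔE2 clone 2 (0.0734) or clone 3 (0.0945). PSMD7 lies on chromosome 16 too, with both deleted elements within 5 Mb of it, and the 54 coding genes around it had medians of 0.09 and 0.01. Over the tested coding genes of chromosome 16 the medians were -0.12, -0.11 and -0.04 in the ΔE2 clones. In the ΔSE12313-b clones they were 0.26, 0.14 and 0.21. The part of the region in the values of PSMD7 was not tested. PSMD6 was at 30.5 and 35.1 FPKM in control cells, at 39.6, 40.3 and 43.9 FPKM without E2 and at 46.9, 42.2 and 43.4 FPKM without SE12313-b. Its rise of 0.33 (ΔE2) and 0.43 (ΔSE12313-b) (adjusted p = 0.0151 and 0.00402) did not hold relative to the shift of all genes (0.17 and 0.14, adjusted p = 0.111 and 0.179). In ΔE2 the call of PSMD6 was also lost without control 1 (0.23, adjusted p = 0.148).

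The chaperones that assemble the base, PSMD5, PSMD9 and PSMD10, rose in both deletions against control, with medians of 0.72 and 0.73. PSMD9 was at 4.67 and 5.41 FPKM in control cells, at 9.05, 7.75 and 8.33 FPKM without E2 and at 10.7, 10.9 and 11.1 FPKM without SE12313-b. PSMD9 rose by 0.72 in ΔE2 and by 1.10 in ΔSE12313-b, whose clones lay above those of ΔE2. PSMD5 was at 12.6 and 14.3 FPKM in control cells, at 21.4, 20.8 and 24.2 FPKM without E2 and at 24.3, 22 and 20.8 FPKM without SE12313-b. PSMD5 rose by 0.72 (ΔE2) and 0.73 (ΔSE12313-b), with overlapping groups of clones. PSMD10, also known as gankyrin, was at 96.3 and 99.1 FPKM in control cells, at 125, 151 and 136 FPKM without E2 and at 141, 112 and 143 FPKM without SE12313-b. It changed least of these chaperones, by 0.49 (ΔE2) and 0.42 (ΔSE12313-b) (adjusted p = 0.0116 and 0.019), and in ΔSE12313-b its rise did not hold relative to the shift of all genes (0.14, adjusted p = 0.36). The call of PSMD10 was also lost in ΔE2 without control 1 (adjusted p = 0.0702) or control 2 (0.0536), and in ΔSE12313-b without control 1 (adjusted p = 0.0967), control 2 (0.0732) or clone 1 (0.0592).

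The activators cap the core in place of the 19S particle. PSME1 and PSME2 form the ring that interferon gamma induces, and PSME1 was not called in either deletion. PSME1 was at 104 and 108 FPKM in control cells, at 104, 126 and 103 FPKM without E2 and at 122, 125 and 189 FPKM without SE12313-b. The ΔE2 clones overlapped the controls, while ΔSE12313-b clone 3 stood far above the other 2. Its change was 0.06 in ΔE2 (-0.38 to 0.50, adjusted p = 0.805) and 0.43 in ΔSE12313-b (-0.01 to 0.87, adjusted p = 0.0833). PSME2 was at 67.9 and 66.2 FPKM in control cells, at 90.7, 103 and 95.1 FPKM without E2 and at 84.9, 99.5 and 113 FPKM without SE12313-b. PSME2 rose by 0.52 (ΔE2) and 0.56 (ΔSE12313-b) (adjusted p = 0.00738 and 0.00466), which relative to the shift of all genes held in ΔE2 (0.36) and not in ΔSE12313-b (0.27, adjusted p = 0.0891). In ΔE2 the call of PSME2 was lost without control 2 (0.50, adjusted p = 0.0501).

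PSME3, whose product forms a ring of its own in the nucleus, was at 20.7 and 19.8 FPKM in control cells, at 35.6, 31 and 37.4 FPKM without E2 and at 37.8, 37.4 and 30.4 FPKM without SE12313-b. PSME3 rose most among the activators, by 0.77 (ΔE2) and 0.79 (ΔSE12313-b). PSME4, a single large chain known for its part in the breakdown of acetylated histones, was at 9.87 and 10.5 FPKM in control cells, at 14.7, 14.2 and 16.1 FPKM without E2 and at 14.8, 16.3 and 12.5 FPKM without SE12313-b. PSME4 rose by 0.56 (ΔE2) and 0.50 (ΔSE12313-b) (adjusted p = 0.00534 and 0.00743). The call of PSME4 in ΔSE12313-b was lost relative to the shift of all genes (0.22, adjusted p = 0.154) and without control 1 (0.46, adjusted p = 0.0554). The activators were also set against the summed transcripts of the 6 ATPases, which do not measure the assembled cap. By this ratio PSME1 went from 0.417 and 0.426 in control cells to 0.215, 0.266 and 0.202 without E2 and to 0.263, 0.263 and 0.374 without SE12313-b. The ratio of PSME2 to the same sum was 0.274 and 0.261 in control cells, 0.189, 0.217 and 0.187 without E2 and 0.183, 0.208 and 0.224 without SE12313-b, lower in all clones as well. The ratio of PSME3 to that sum stayed between 0.06 and 0.0833 in all libraries.

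PSMF1, or PI31, was described as an inhibitor of the core and links it to transport along the cytoskeleton. PSMF1 was at 10.7 and 10.5 FPKM in control cells, at 15, 13.5 and 15.3 FPKM without E2 and at 16.4, 15.9 and 17.8 FPKM without SE12313-b. It rose by 0.46 (ΔE2) and 0.65 (ΔSE12313-b) (adjusted p = 0.0029 and 0.000404). The rise passed 1.5-fold in ΔSE12313-b and not in ΔE2, and the difference between the deletions was -0.19 (adjusted p = 0.106).

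The assembly chaperones of the core were split. PSMG1 and PSMG2 form the pair that joins alpha subunits into a ring. PSMG1 was at 21 and 22.8 FPKM in control cells, at 48, 38.6 and 50.8 FPKM without E2 and at 51.9, 44.4 and 41.6 FPKM without SE12313-b. PSMG1 roughly doubled, with a change of 1.05 in ΔE2 (0.74 to 1.37) and 1.06 in ΔSE12313-b (0.74 to 1.38). PSMG2 was at 32.5 and 30.4 FPKM in control cells, at 45.3, 48.1 and 51.9 FPKM without E2 and at 47.9, 45.2 and 49.2 FPKM without SE12313-b. Its rise was smaller, 0.62 (ΔE2) and 0.59 (ΔSE12313-b). PSMG3 and PSMG4 form the pair that acts on the other face of the alpha ring. PSMG3 was at 8.87 and 9.22 FPKM in control cells, at 10.3, 9.37 and 10.4 FPKM without E2 and at 14.6, 12.7 and 11.9 FPKM without SE12313-b. It was not called in ΔE2 (0.14, -0.10 to 0.38) and rose in ΔSE12313-b (0.52, adjusted p = 0.00316), which did not hold relative to the shift of all genes (0.23, adjusted p = 0.0889).

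PSMG4 was the least abundant of the 44 members tested and the one of them that differed most between the deletions. PSMG4 (chr6:3259162-3268300, plus strand, GRCh37) was at 3.76 and 3.45 FPKM in control cells, at 3.14, 2.15 and 3.6 FPKM without E2 and at 5.64, 5.21 and 5.09 FPKM without SE12313-b. These values rest on 30 to 74 reads. The ΔE2 clones overlapped the controls (-0.31, -0.76 to 0.15, adjusted p = 0.225), and all ΔSE12313-b clones lay above them (0.55, 0.09 to 1.00, adjusted p = 0.0436). The rise in ΔSE12313-b was lost in 15 of 21 alternative analyses, among them those without either control, without ΔE2 clone 1 and without any of the ΔSE12313-b clones (adjusted p from 0.0583 to 0.176), and reached 0.26 relative to the shift of all genes. PSMG4 was also the one member whose annotated transcripts differed by more than 0.2 in their change, with -0.45 to -0.03 in ΔE2 and 0.38 to 0.77 in ΔSE12313-b.

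E2 was active and SE12313-b inactive in the reporter assay of the study, and the direct comparison asks whether the loss of one moved the proteasome more than the loss of the other. The median difference between ΔE2 and ΔSE12313-b over the members was 0.00, where that of all genes was -0.11. PSMB1 was higher in ΔE2 (6.69% of all genes were), and PSMA3, PSMA5, PSMD2, PSMD9, PSMG3 and PSMG4 were lower (19.3%). At 1.5-fold 0 members were higher (3.57%) and PSMG4 was lower (8.26%), and at 2-fold 0 were higher (1.6%) or lower (2.63%). The clones of the deletions did not overlap in 4 members that were higher in ΔE2 (11.0% of all genes) and in 9 that were lower (29.8%). Relative to the shift of all genes the split turned, with 6 members higher in ΔE2 (PSMA1, PSMB1, PSMB2, PSMC3, PSMD14 and PSMD7, against 10.5% of all genes) and PSMG4 lower (11.0%). PSMB1 and PSMG4 are the members called by both, and by centring each passed 1.5-fold (5.36% of all genes higher, 4.79% lower).

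The difference of PSMB1 was 0.51 (0.39 to 0.63, limma adjusted p = 0.000847), and 0.64 relative to the shift of all genes (adjusted p = 0.000464). PSMB1 lies near the end of the long arm of chromosome 6 (chr6:170844204-170862417, minus strand, GRCh37), and the 14 coding genes within 5 Mb of it differed by a median of 0.49 between the deletions. In the single ΔSE12313-b clones these neighbours lay at -0.58, -0.39 and -0.5 against the controls, and in the ΔE2 clones at -0.09, -0.05 and -0.04. Between the deletions PSMB1 thus differed by about as much as the genes around it, and the part of the region in its difference was not tested. For PSMG4 the difference was -0.85 (-1.26 to -0.44, adjusted p = 0.0113), and its 29 neighbours had a median of -0.10.

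PSMD2 was lower in ΔE2 by -0.45 (-0.71 to -0.18, adjusted p = 0.0258), and its 50 neighbours on chromosome 3 by -0.53. Those neighbours lay at 0.54, 0.58 and 0.53 in the ΔSE12313-b clones and at 0.03, 0.05 and 0.02 in the ΔE2 clones, and the part of the region in the difference of PSMD2 was not tested. Against control, the changes of PSMD2 (1.18 and 1.63) lay above those of its neighbours (0.04 and 0.57). The other 4 differences were smaller. PSMD9 differed by -0.38 (adjusted p = 0.0176, neighbours -0.21), PSMG3 by -0.37 (adjusted p = 0.0216, neighbours -0.16), PSMA3 by -0.27 (adjusted p = 0.025, neighbours -0.16) and PSMA5 by -0.24 (adjusted p = 0.0205, neighbours -0.02). Most of these calls rest on single libraries, since that of PSMD2 was lost without ΔE2 clone 1 or 2 or ΔSE12313-b clone 1 or 2 (adjusted p from 0.0523 to 0.0854), that of PSMD9 without ΔE2 clone 3 (0.0537) and that of PSMG3 without ΔE2 clone 2 (0.0517) or ΔSE12313-b clone 1 (0.0602). The call of PSMA5 was lost without ΔE2 clone 3 (adjusted p = 0.0631) or ΔSE12313-b clone 1 (0.0533), and that of PSMA3 without either control, ΔE2 clone 1 or 3 or ΔSE12313-b clone 2 or 3 (0.0536 to 0.0775). For the remaining members the intervals of the difference were narrow where the groups were tight, as for PSMA2 (-0.16 to 0.16), PSMC5 (-0.15 to 0.15) and PSMD1 (-0.12 to 0.17), and wide for PSME1 (-0.76 to 0.02).

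**Figure D4:**
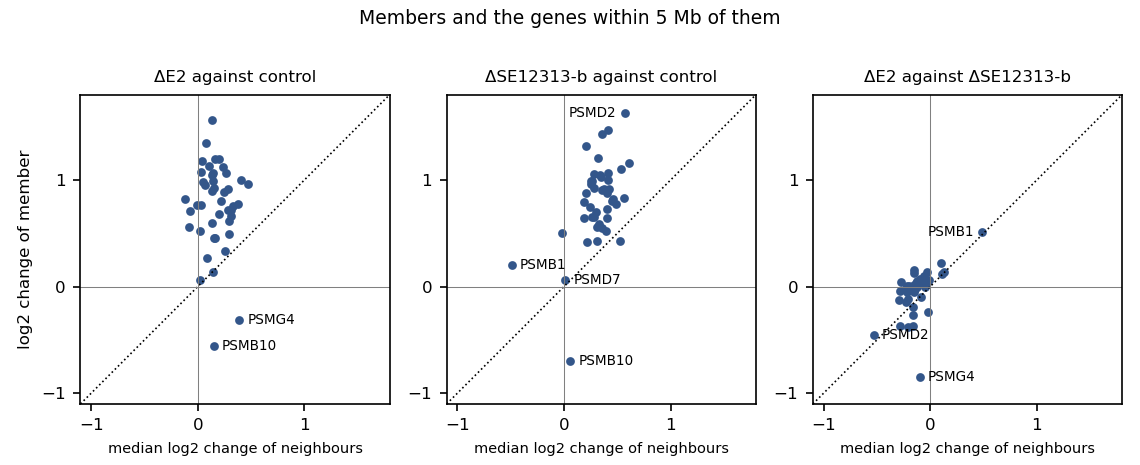
Log2 change of each of the 44 members against the median log2 change of the tested coding genes within 5 Mb of it, without members, in 3 comparisons on equal axes with a dotted line of equality. In both comparisons with control most points lie above the line, whereas PSMB1 and PSMD2 lie near it in the comparison of the deletions.

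The members are spread over the genome, with no more than 7 tested members on a chromosome (14 and 17), and most changed more than the genes around them. In ΔE2 41 of 44 members, and in ΔSE12313-b 42, lay above the median of the coding genes within 5 Mb. For other genes this count was not made. The medians of the members were 0.79 and 0.83 against 0.14 and 0.27 for all genes tested, so the count partly restates the rise. Chromosome 14 varied among the ΔSE12313-b clones, with medians of 0.27, 0.48 and 0.62 over its coding genes against 0.14, 0.22 and 0.21 in the ΔE2 clones. Of its 7 tested members, PSMB5 was highest among the ΔSE12313-b clones in clone 2. PSMA3, PSMA6, PSMC1, PSMC6, PSME1 and PSME2 were highest among these clones in clone 3, the clone with the highest median. The 75 neighbours of PSME1 lay at 0.13, 0.31 and 0.57 in these clones, and their part in its high value in clone 3 was not tested.

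Genes that work with the proteasome changed less uniformly. Of 42 partners and genes of the ubiquitin system, all tested, 20 rose and 10 fell in ΔE2 (34.7% and 19.4% of all genes did) and 22 rose and 7 fell in ΔSE12313-b (43.0% and 16.4%), with medians of 0.25 and 0.36. Relative to the shift of all genes 16 rose and 11 fell in ΔE2 (26.6% and 26.1% of all genes), and 14 rose and 11 fell in ΔSE12313-b (27.7% and 27.3%). The shares of the list that fell were near those of all genes. Those that rose by about as much as the subunits include factors bound to the complex, but other such factors rose less or were not called. USP14 rose by 0.40 (ΔE2) and 0.37 (ΔSE12313-b) and ECPAS by 0.46 and 0.39. Relative to the shift of all genes both held in ΔE2 and not in ΔSE12313-b (limma adjusted p = 0.355 and 0.395). SEM1 was not called in either deletion (0.12 and 0.40, adjusted p = 0.695 and 0.205). POMP, which assembles the beta ring, was at 18.7 and 20.6 FPKM in control cells, at 36.4, 36.9 and 39.2 FPKM without E2 and at 40.7, 40.5 and 40.1 FPKM without SE12313-b. POMP rose by 0.93 (ΔE2) and 1.04 (ΔSE12313-b) (adjusted p = 3.11e-05 and 1.39e-05). ADRM1, a ubiquitin receptor of the cap, was at 55.6 and 54.6 FPKM in control cells, at 110, 84.6 and 98.5 FPKM without E2 and at 100, 95.3 and 95.4 FPKM without SE12313-b. UCHL5, the deubiquitinase that ADRM1 recruits, was at 3.23 and 3.97 FPKM in control cells, at 8.24, 7.47 and 7.38 FPKM without E2 and at 8.61, 7.82 and 6.96 FPKM without SE12313-b. ADRM1 rose by 0.82 (ΔE2) and 0.81 (ΔSE12313-b) and UCHL5 by 1.08 (ΔE2) and 1.09 (ΔSE12313-b).

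TXNL1, a thioredoxin bound to the cap, was at 20.3 and 23 FPKM in control cells, at 43.2, 41.5 and 43.3 FPKM without E2 and at 40.6, 44.2 and 44.2 FPKM without SE12313-b. VCP, the ATPase that extracts ubiquitinated proteins for the proteasome, was at 36.4 and 36.5 FPKM in control cells, at 78.2, 87.1 and 84.1 FPKM without E2 and at 85.1, 80.7 and 85.4 FPKM without SE12313-b. VCP rose most of the 42 in both deletions, by 1.19 (ΔE2) and 1.20 (ΔSE12313-b), and TXNL1 rose by 0.98 (ΔE2) and 0.99 (ΔSE12313-b). UBA1, the main enzyme that activates ubiquitin, was at 42.5 and 43.4 FPKM in control cells, at 80.2, 81.3 and 90.7 FPKM without E2 and at 98.2, 92.1 and 86.3 FPKM without SE12313-b. UBA1 rose by 0.96 (ΔE2) and 1.10 (ΔSE12313-b). UBB, which encodes ubiquitin itself, rose by 0.73 (ΔE2) and 1.03 (ΔSE12313-b), whereas RPS27A, which encodes ubiquitin fused to a ribosomal protein, changed by -0.08 (ΔE2) and -0.02 (ΔSE12313-b) and was not called. PAAF1, the remaining chaperone of the base, fell, with a change of -0.23 (ΔE2) and -0.53 (ΔSE12313-b) (adjusted p = 0.0448 and 0.000941), unlike PSMD5, PSMD9 and PSMD10.

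NFE2L1, the factor that raises proteasome genes, was lower as a transcript. NFE2L1 was at 46.9 and 47.1 FPKM in control cells, at 30.1, 31.9 and 31.9 FPKM without E2 and at 36.2, 37.2 and 38.7 FPKM without SE12313-b. It fell in both deletions, with a change of -0.59 (ΔE2) and -0.33 (ΔSE12313-b) (adjusted p = 0.000204 and 0.00301), with all clones below both controls. NFE2L1 is controlled mainly as a protein, and no protein was measured. DDI2, the protease that frees it, was at 4.61 and 4.19 FPKM in control cells, at 6.69, 6.17 and 6.83 FPKM without E2 and at 7.36, 7.97 and 6.2 FPKM without SE12313-b. DDI2 rose by 0.57 (ΔE2) and 0.69 (ΔSE12313-b) (adjusted p = 0.00541 and 0.00177). NFE2L2 was at 21.8 and 22.8 FPKM in control cells, at 24.2, 25 and 27.5 FPKM without E2 and at 25.1, 25.8 and 23.4 FPKM without SE12313-b, which was not called (0.00 to 0.38 and -0.04 to 0.34). The small MAF proteins with which both factors pair differed. MAFK and MAFF fell, with changes of -0.93 (ΔE2) and -0.92 (ΔSE12313-b) for MAFK and of -0.68 (ΔE2) and -1.02 (ΔSE12313-b) for MAFF. MAFG, at -0.22 (ΔE2) and 0.09 (ΔSE12313-b), was not called. AKIRIN2, which carries proteasomes into the nucleus after division, fell, with a change of -0.37 (ΔE2) and -0.64 (ΔSE12313-b).

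**Figure D5:**
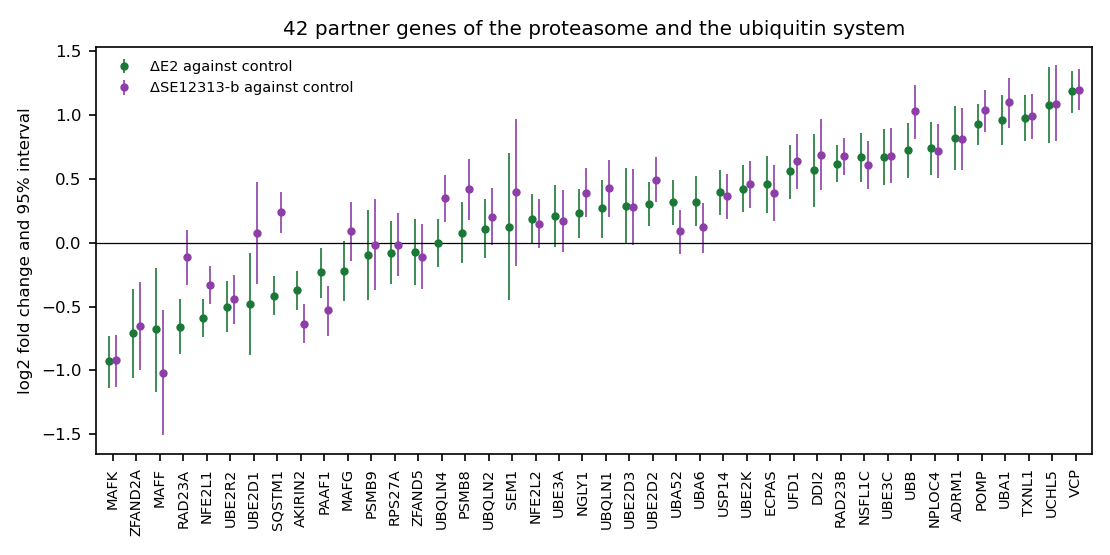
Log2 fold change against control, with limma's 95% interval as a bar, of 42 genes that work with the proteasome or in the ubiquitin system, ordered by their change in ΔE2 (green; ΔSE12313-b purple). POMP, UBA1, TXNL1, UCHL5 and VCP at the right rose by about as much as the subunits, and MAFK, MAFF and NFE2L1 at the left fell in both deletions.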

How the data were processed

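Total RNA depleted of ribosomal RNA from 8 EA.hy926 libraries (2 control, 3 ΔE2, 3 ΔSE12313-b) was prepared with a directional kit and sequenced as single-end reads. Per the paper and the submitters' processing notes, the authors trimmed with Trim Galore 0.4.4 and aligned to GRCh37 with STAR 2.5.4b. The authors deposited FPKM for 65572 RefSeq transcripts, and the counting tool, RefSeq release and strand handling behind this table are not given in the sources used here.

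The deposited FPKM were used as they are. Values times transcript length fell on whole reads for 100% of those checked (within 0.1 read), which gave the depths. Depths carry counting error only. A gene is represented by its transcript of highest mean FPKM, and 42 transcripts without a gene name were left out. Genes with 2 or more libraries at 0.5 FPKM or above entered limma 3.58.1 (R 4.3.3) as log2(FPKM + 0.1) (3 groups in 1 model, empirical Bayes with trend, two-sided) with Benjamini-Hochberg adjustment over 13789 genes, and a fold change on this scale understates the change of low genes. The steps were tested on simulated data. The authors' own edgeR calls rest on other counts and were not used.

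The members, gene lists and tests were chosen with earlier results of these data known. Values per library were to be given for the members with the largest and smallest change of each role, the 5 largest of all members, all past 1.5-fold and all that differed between the deletions. All 46 are given. One gene was left out of the list of partners as first drawn up and is not reported here. Nothing states that the 2 control libraries are separate cultures. The p-values rest on the spread between libraries within the groups, pooled in 1 model, which the clones inform more than the 2 controls. They do not measure the variation between control cultures. Alternatives were other pseudocounts (0.01 and 1), filters, scalings, transcripts, models, a replicate block, voom on the recovered reads, stricter thresholds and each library left out.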

Additional observations from a re-analysis of the deposited data

Results flagged for a closer look

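The 7 members that differed between the deletions (ΔE2 minus ΔSE12313-b, log2, limma with Benjamini-Hochberg adjustment over all genes tested) were PSMB1 with 0.51, PSMG4 with -0.85, PSMD2 with -0.45, PSMD9 with -0.38, PSMG3 with -0.37, PSMA3 with -0.27 and PSMA5 with -0.24. In this comparison 6.69% of all genes tested were called higher in ΔE2 and 19.3% lower, so the count of members does not set them apart. For each of the 7, all 3 clones of one deletion lay on one side of all 3 clones of the other. Because the 7 were chosen by this difference in the same libraries, the separation adds no support. Over all genes tested, the ΔE2 clones lay above the others for 11.0% and below for 29.8%. Relative to the shift of all genes, PSMB1 (0.64, adjusted p = 0.000464) and PSMG4 (-0.72, adjusted p = 0.024) were still called, and PSMD2 (-0.31), PSMD9 (-0.25), PSMG3 (-0.24), PSMA3 (-0.14) and PSMA5 (-0.11) were not. Of 21 alternatives, the call was lost in 1 for PSMG4, in 5 for PSMD9, in 6 each for PSMA5 and PSMG3, in 9 for PSMD2 and in 10 for PSMA3.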

How the results depend on the processing

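Each result was recomputed under 21 alternatives. In ΔE2 35 of 44 members, and in ΔSE12313-b 29 of 44, kept the same call under every one, and 39 and 38 had a positive change under every one. When single libraries were left out, 37 to 40 members were higher in ΔE2 and 37 to 41 in ΔSE12313-b, and 32 to 33 and 33 to 34 by at least 1.5-fold. With quantile normalization 16 members in ΔE2 and 9 in ΔSE12313-b were higher by 1.5-fold, after centring 21 in ΔSE12313-b, and 11 in each passed 2-fold. Shares of all genes were computed for the main and the centred analysis only. The counts of this section under other alternatives thus have no share to be set against. The median change was 0.63 and 0.54 after centring and 0.46 and 0.34 with quantile normalization, with ranges of 0.74 to 0.84 and 0.83 to 0.87 without single libraries.

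Lower members numbered 0 in both deletions at an adjusted p under 0.01 and 0 to 1 without single libraries. In ΔSE12313-b they were 2 after centring and 3 with quantile normalization. Lower by 1.5-fold was 1 in ΔE2 after centring, with quantile normalization and with the replicate block, and 0 to 1 without single libraries in both deletions, and 0 passed 2-fold in ΔSE12313-b. Between the deletions, members higher in ΔE2 were 6 after centring, 7 with quantile normalization and 1 to 2 without single libraries (by 1.5-fold, 1 under either scaling). Lower were 1 under either scaling, 2 with the replicate block, 0 at an adjusted p under 0.01 and 3 to 5 without single libraries, and 0 passed 2-fold. The median difference was 0.13 after centring and 0.15 with quantile normalization.

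Changes that turned sign were, in ΔE2, PSMD7 (-0.06, quantile), PSMG3 (-0.01 centred, -0.06 quantile) and PSME1 (-0.10 centred, -0.36 quantile, -0.02 with the replicate block, and -0.04 to 0.11 without single libraries, the lowest without ΔE2 clone 2), and in ΔSE12313-b, PSMB1 (-0.09 centred, -0.32 quantile), PSMD7 (-0.23 centred, -0.44 quantile), PSMD6 (-0.04, quantile), PSMD10 (-0.13, quantile) and PSME1 (-0.13, quantile). The cause was not tested.

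The replicate numbers of the labels mark no shared culture or day, and the deviations of libraries with the same number correlated at -0.0804 to 0.107, so they were not taken as pairs. With the replicate block 38 members were higher in each deletion. With 2 control libraries, intervals stay wide for PSME1, PSMB10 and PSMG4, and the depth limits PSMG4, PSMA8 and PSMB11 most.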
